A study of Mus musculus with 18 samples.

Results

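The nitric oxide, itaconate and prostaglandin enzymes examined here were chosen by name from a list of 9 genes that make, feed or accompany these mediators in activated macrophages. A gene was kept when its symbol was among the 11243 genes of the count table, where Acod1 is written with its older symbol Irg1. This held for 7 of the 9, namely Ass1, Gch1, Acod1, Ptgs2, Ptges, Ptgs1 and Sod2. Nos2 and Slc7a2 were not analysed here.

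The study sequenced total and polysome-associated mRNA of RAW264.7 cells, a mouse macrophage line, in 3 independent experiments, which gave 9 lysates and 18 libraries. Polysome-associated mRNA is the share of a transcript that sediments with several ribosomes in a sucrose gradient. The control cells received the vehicle (DMSO), the second group received 500 ng/mL LPS, a bacterial lipopolysaccharide from Salmonella, for 6 h, and the third was given torin1, an inhibitor of the kinase mTOR, at 100 nM, and 15 min later the same dose of LPS for 6 h. Each of the 3 treatments has 3 libraries of each RNA type, and no group received torin1 without LPS in the libraries used here.

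Activated macrophages turn arginine into nitric oxide with an inducible synthase, which depends on arginine supply and on the cofactor tetrahydrobiopterin. They also divert the Krebs cycle intermediate aconitate to itaconate, and they release prostaglandin E2 from arachidonic acid through a cyclooxygenase and a terminal synthase. Superoxide made during activation reacts with nitric oxide, and a mitochondrial dismutase removes it.

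The depth of the total mRNA libraries in experiments 1, 2 and 3 was 27800983, 38175777 and 29458533 counts for the control, 32099800, 36698363 and 34863463 counts with LPS, and 31199809, 32049403 and 30422715 counts with LPS and torin1. For polysome-associated mRNA it was 38824383, 37395300 and 45801886, 34930909, 43083107 and 41717779, and 40788724, 40505824 and 47725557 counts for the same treatments. Levels are given as CPM, counts scaled to a common library size, after TMM normalization, which sets the scale on genes that differ little between libraries. They are relative to the other mRNAs of a library, so a gain or loss shared by most mRNAs does not show in them. The lowest level among the 7 genes, 0.822 CPM of Ass1 in total mRNA of the control of experiment 1, rests on 27 counts.

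The cells were checked against markers. All 10 of the macrophage markers looked for were among the genes of the table, with summed levels in total mRNA of 12540.0, 13594 and 13040.0 CPM in the control, 14440.0, 14901 and 15784 CPM with LPS, and 13581, 14863 and 15085 CPM with LPS and torin1. Lyz2, which encodes lysozyme, was the most abundant of them. Within these sums single markers moved in both directions by edgeR in total mRNA. With LPS, Fcgr1 (2.44), Itgam (2.14), Cd14 (1.52), Mpeg1 (1.29), Spi1 (0.50) and Adgre1 (0.45) rose on the log2 scale and Csf1r (-0.93) fell. With torin1, Mpeg1 (1.24), Adgre1 (0.54) and Cd68 (0.39) rose and Fcgr1 (-2.87), Csf1r (-0.55) and Lyz2 (-0.42) fell. Each did so in 3 of 3 experiments, and the calls of Adgre1 did not hold under every alternative (highest adjusted p 0.377 and 0.396, edgeR or DESeq2). The replicate block also called Lyz2 with LPS (-0.17, edgeR adjusted p = 0.243) and Itgam with torin1 (-0.17, edgeR adjusted p = 0.231), both lower. None of the T cell, B cell, fibroblast and epithelial markers looked for had a place in the table, which holds only genes counted in every library. Of 3 endothelial markers, 1 was present, Cdh5, at a mean of 0.453 ± 0.224 CPM in the control, 0.850 ± 0.0977 CPM with LPS and 0.401 ± 0.318 CPM with LPS and torin1 (SD, n = 3, total mRNA). Of 6 mast cell and granulocyte markers, 1 was present, S100a8, which also rises in activated macrophages, at 0.207 ± 0.0835 CPM in the control, 3.89 ± 1.91 CPM with LPS and 2.17 ± 1.28 CPM with LPS and torin1 (SD, n = 3, total mRNA). Both were called higher with LPS by edgeR in each RNA type, Cdh5 in total mRNA at an adjusted p of 0.218 (0.103 to 0.424 over the alternatives). With torin1, edgeR called Cdh5 lower in total mRNA, with a log2 difference of -1.09 (adjusted p = 0.180, 0.0908 to 0.358 over the alternatives), in 3 of 3 experiments, and in polysome-associated mRNA the log2 difference of -0.98 did not pass (adjusted p = 0.342, 0.112 to 0.682 over the alternatives) but did with the replicate block (-1.02, edgeR adjusted p = 0.112), lower in 3 of 3. It called S100a8 lower in total mRNA, with -0.84 (edgeR adjusted p = 0.193, 0.113 to 0.866 over the alternatives), in 3 of 3 experiments, and in polysome-associated mRNA, with -0.57 (edgeR adjusted p = 0.204, 0.166 to 0.767 over the alternatives), in 2 of 3. The part of these low signals in the results was not tested. Of 6 LPS response genes, 5 were in the table, and all 5 rose with LPS in both RNA types, while Il6 was not analysed here. With torin1, edgeR called 3 of the 5 lower and 0 higher in each RNA type, against 53.7% and 38.4% of all genes called. In total mRNA these were Cxcl10 (-3.11), Il1b (-1.82) and Cxcl2 (-0.49) on the log2 scale, while Tnf (-0.22) and Nfkbia (-0.0034) did not pass. The calls of Cxcl2 did not hold under every alternative (highest adjusted p 0.391 and 0.470, edgeR or DESeq2).

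**Figure D1:**
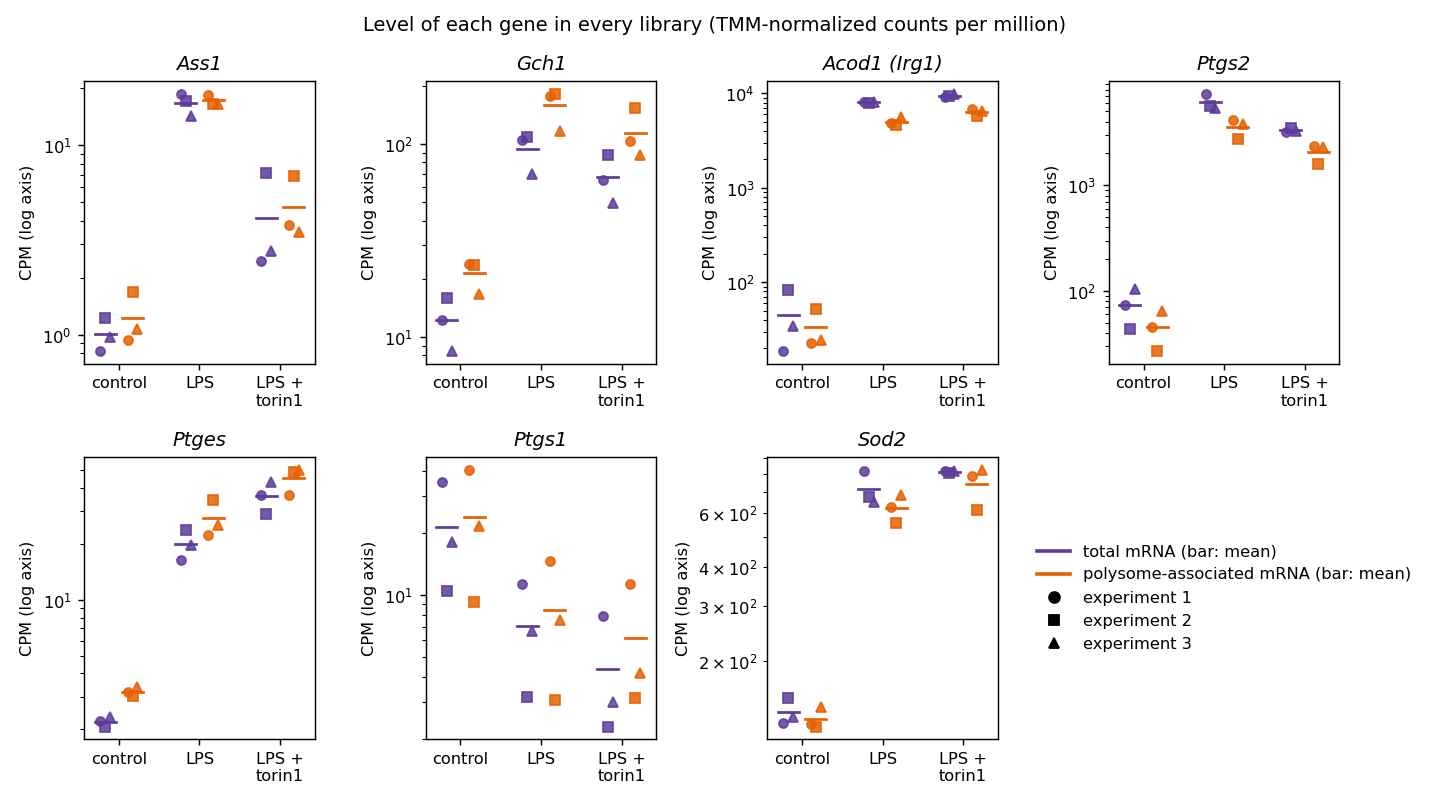
Level of each gene in all 18 libraries, as TMM-normalized CPM on a log axis, for total mRNA (purple) and polysome-associated mRNA (orange) by treatment. Symbols mark the 3 experiments and bars the group means. 6 of the genes sit higher with LPS than in the control in both RNA types and Ptgs1 sits lower.

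Ass1 encodes argininosuccinate synthase, which rebuilds arginine from the citrulline released by nitric oxide synthesis. In total mRNA, Ass1 was at 0.822, 1.23 and 0.967 CPM in the control libraries of experiments 1, 2 and 3, at 18.7, 17.2 and 14.4 CPM with LPS, and at 2.44, 7.14 and 2.76 CPM with LPS and torin1. Polysome-associated Ass1 mRNA measured 0.933, 1.68 and 1.08 CPM in experiments 1, 2 and 3 of the control, 18.5, 16.6 and 16.6 CPM with LPS, and 3.77, 6.85 and 3.50 CPM with LPS and torin1. The libraries with LPS were above every other library in both RNA types, and those with LPS and torin1 lay between the control and LPS without overlap. Experiment 2 had the highest level with LPS and torin1 in both RNA types. In the comparison of LPS with the control, which asks what 6 h of LPS did to the level, total Ass1 mRNA rose by a log2 fold change of 4.04 ± 0.40 (SE), 16.4-fold, with an adjusted p of 2.67e-05 by edgeR's quasi-likelihood test, higher in 3 of 3 experiments. Polysome-associated Ass1 rose by 3.81 ± 0.33 (log2, SE; edgeR adjusted p = 1.97e-05), also in 3 of 3. In these bulk lysates, a change in the number of cells with the transcript and a change in RNA per cell cannot be told apart.

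Gch1 encodes GTP cyclohydrolase, the first enzyme of tetrahydrobiopterin synthesis. In total mRNA, Gch1 was at 12.2, 15.9 and 8.44 CPM in the control libraries of experiments 1, 2 and 3, at 104.6, 108 and 70.1 CPM with LPS, and at 64.7, 87.2 and 49.1 CPM with LPS and torin1. Polysome-associated Gch1 mRNA measured 23.9, 23.5 and 16.7 CPM in experiments 1, 2 and 3 of the control, 177, 181 and 116 CPM with LPS, and 103, 152 and 87.2 CPM with LPS and torin1. Control libraries were the lowest in each RNA type, while LPS and LPS with torin1 overlapped, with experiment 3 the lowest of the experiments in all 6 groups. LPS raised total Gch1 by 2.95 ± 0.28 (log2, SE; edgeR adjusted p = 2.10e-05) and polysome-associated Gch1 by 2.89 ± 0.27 (edgeR adjusted p = 3.36e-05), each in 3 of 3 experiments.

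The 250 bases before the RefSeq start of Gch1 (GRCm38, chr14:47189414-47189663, minus strand) are shown because they held the most matches among the 7 genes. Capitals mark TTTATA, which is TATAAA on the other strand, then TGACG, and GGGGCTCCCC, a match to the kappaB consensus that ends at the start site.
Gch1: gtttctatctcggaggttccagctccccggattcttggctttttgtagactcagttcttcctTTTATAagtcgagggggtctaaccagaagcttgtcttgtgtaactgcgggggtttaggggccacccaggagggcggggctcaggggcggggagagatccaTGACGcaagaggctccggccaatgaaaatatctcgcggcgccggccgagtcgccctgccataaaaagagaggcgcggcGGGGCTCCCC
The 5 motifs were searched on both strands in the 250 bases before the start of 32851 RefSeq promoters. The kappaB consensus was found in 7.25% of them, TTGCNNAA in 9.56%, TGACG in 17.8%, CACGTG in 6.02% and TATAAA in 12.4%. A match describes these letters and not a bound site, and the motifs were chosen with results known. Sod2 had a kappaB match 83 to 74 bases before its RefSeq start, which lies inside the annotated gene, as that gene begins further upstream. Ass1 had CACGTG at 36 to 31 bases before its RefSeq start, where these bases are part of the annotated exon.

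Acod1 encodes aconitate decarboxylase, the enzyme that makes itaconate. In total mRNA, Acod1 was at 18.7, 82.0 and 34.1 CPM in the control libraries of experiments 1, 2 and 3, at 8024, 7963 and 8052 CPM with LPS, and at 9274, 9317 and 9888 CPM with LPS and torin1. Polysome-associated Acod1 mRNA measured 22.7, 52.1 and 24.7 CPM in experiments 1, 2 and 3 of the control, 4847, 4658 and 5612 CPM with LPS, and 6776, 5808 and 6523 CPM with LPS and torin1. Control libraries spread widely, with experiment 2 the highest of them in both RNA types, whereas the LPS libraries of total mRNA differed by little. All libraries with LPS and torin1 were above all with LPS alone. Acod1 took 0.702%, 0.722% and 0.747% of all counts in the total mRNA libraries with LPS, against 0.00222%, 0.00945% and 0.00395% in the control. With LPS, total Acod1 rose by 7.48 ± 0.52 on the log2 scale (SE), 178-fold, with an edgeR adjusted p of 3.03e-06, and polysome-associated Acod1 rose by 7.25 ± 0.37 (edgeR adjusted p = 8.66e-07), in 3 of 3 experiments each. Without experiment 2, total Acod1 rose by 8.25. In both RNA types the change over all experiments was the rise of rank 13 from the top of 11243 genes.

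The Acod1 promoter is shown because the gene had the largest change of the 7 with LPS. The 215 bases (GRCm38, chr14:103046762-103046976, plus strand) end where the annotated gene begins. They held none of the 5 motifs, so no base is in capitals, and TATAAA at 28 to 23 bases before the RefSeq start lies in the exon bases not shown.
Acod1: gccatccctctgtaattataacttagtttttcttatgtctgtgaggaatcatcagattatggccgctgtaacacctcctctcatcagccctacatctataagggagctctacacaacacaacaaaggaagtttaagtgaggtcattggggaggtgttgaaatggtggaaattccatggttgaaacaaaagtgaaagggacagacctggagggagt

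Ptgs2 encodes cyclooxygenase-2, the inducible enzyme that commits arachidonic acid to prostaglandins. In total mRNA, Ptgs2 was at 73.3, 43.5 and 104 CPM in the control libraries of experiments 1, 2 and 3, at 7323, 5663 and 5421 CPM with LPS, and at 3210.0, 3458 and 3290.4 CPM with LPS and torin1. Polysome-associated Ptgs2 mRNA measured 45.4, 27.1 and 64.5 CPM in experiments 1, 2 and 3 of the control, 4149, 2739 and 3826 CPM with LPS, and 2373, 1595 and 2283 CPM with LPS and torin1. The 3 treatments did not overlap in either RNA type, with the control lowest and LPS highest. LPS raised total Ptgs2 by 6.38 ± 0.32 (log2, SE; edgeR adjusted p = 4.73e-07), 83.5-fold, and polysome-associated Ptgs2 by 6.29 ± 0.37 (edgeR adjusted p = 2.71e-06), both in 3 of 3 experiments.

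Ptges encodes the inducible microsomal prostaglandin E synthase, which acts after the cyclooxygenase. In total mRNA, Ptges was at 2.22, 2.07 and 2.32 CPM in the control libraries of experiments 1, 2 and 3, at 16.3, 23.8 and 19.8 CPM with LPS, and at 36.5, 28.8 and 43.2 CPM with LPS and torin1. Polysome-associated Ptges mRNA measured 3.16, 3.01 and 3.40 CPM in experiments 1, 2 and 3 of the control, 22.4, 34.5 and 25.4 CPM with LPS, and 36.7, 48.7 and 50.3 CPM with LPS and torin1. Here the order differed from that of Ptgs2, since every library with LPS and torin1 was above every library with LPS, and the control was lowest. With LPS, total Ptges rose by 3.18 ± 0.20 (log2, SE; edgeR adjusted p = 1.54e-06) and polysome-associated Ptges by 3.10 ± 0.22 (edgeR adjusted p = 6.50e-06), in 3 of 3 experiments each. A processed pseudogene, Gm13400, lies in an intron of Ptges and shares 0 exon bases with it.

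Ptgs1 encodes cyclooxygenase-1, the isoform that many cells express without a stimulus. In total mRNA, Ptgs1 was at 35.4, 10.4 and 17.999 CPM in the control libraries of experiments 1, 2 and 3, at 11.3, 3.19 and 6.68 CPM with LPS, and at 7.84, 2.29 and 3.00 CPM with LPS and torin1. Polysome-associated Ptgs1 mRNA measured 40.5, 9.17 and 21.6 CPM in experiments 1, 2 and 3 of the control, 14.6, 3.07 and 7.55 CPM with LPS, and 11.2, 3.14 and 4.16 CPM with LPS and torin1. Experiment 1 was the highest and experiment 2 the lowest in all 6 groups, so that the control and LPS groups overlapped although each experiment was lower with LPS. Total Ptgs1 fell by 1.60 ± 0.57 (log2, SE; edgeR adjusted p = 0.0421), lower in 3 of 3 experiments. With the replicate block its log2 fold change was -1.59 (edgeR adjusted p = 2.36e-05). Polysome-associated Ptgs1 fell by 1.51 ± 0.65 (edgeR adjusted p = 0.103), lower in 3 of 3, and without experiment 3 the edgeR adjusted p was 0.291. Ptgs1 shares 148 exon bases, 3.81% of its exon length, with the antisense gene Gm43621, and whether the counting used strand is not given in the sources used here, so reads of that stretch are uncertain.

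The promoters of both cyclooxygenase genes are shown because one rose and the other fell with LPS. That of Ptgs2 (GRCm38, chr1:150099781-150100030, plus strand) holds TTGCGCAA, in capitals, a match to TTGCNNAA 69 to 62 bases before the RefSeq start. That of Ptgs1 (chr2:36230176-36230425, plus strand) holds none of the 5 motifs.
Ptgs2: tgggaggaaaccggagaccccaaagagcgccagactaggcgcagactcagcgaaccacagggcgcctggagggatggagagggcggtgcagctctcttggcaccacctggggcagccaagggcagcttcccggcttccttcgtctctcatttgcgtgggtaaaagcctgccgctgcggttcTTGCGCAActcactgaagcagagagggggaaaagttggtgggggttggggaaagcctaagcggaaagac
Ptgs1: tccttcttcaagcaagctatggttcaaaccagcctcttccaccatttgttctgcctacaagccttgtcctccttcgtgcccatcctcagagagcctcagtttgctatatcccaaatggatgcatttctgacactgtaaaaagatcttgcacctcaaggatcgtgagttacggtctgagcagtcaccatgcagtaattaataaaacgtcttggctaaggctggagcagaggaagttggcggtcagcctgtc
The pentamer ATTTA, counted because it recurs in unstable mRNAs, occurred 14 times in the 3′ UTR of Ptgs2 (5.73 per kb), 12 times in that of Sod2 (2.42 per kb), 7 times in that of Gch1 (3.68 per kb), 1 time in that of Acod1, and not in those of Ass1, Ptges and Ptgs1. Over 10881 genes the median was 2 per gene and 1.31 per kb. Bases 12 to 41 after the Ptgs2 stop codon (chr1:150105794-150105823, plus strand, 3′ UTR) hold 4 of them, in capitals and partly overlapping.
Ptgs2 site: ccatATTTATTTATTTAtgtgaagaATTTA
These counts describe the letters and were not set against any stability measurement.

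Sod2 encodes the mitochondrial manganese superoxide dismutase. In total mRNA, Sod2 was at 126, 152 and 132 CPM in the control libraries of experiments 1, 2 and 3, at 817, 676 and 651 CPM with LPS, and at 815, 808 and 815 CPM with LPS and torin1. Polysome-associated Sod2 mRNA measured 125.5, 122.8 and 142 CPM in experiments 1, 2 and 3 of the control, 626, 554 and 686 CPM with LPS, and 789.7, 612 and 826 CPM with LPS and torin1. Control libraries were far below the others, and LPS overlapped with LPS and torin1. With LPS, total Sod2 rose by 2.39 ± 0.12 (log2, SE; edgeR adjusted p = 4.86e-07) and polysome-associated Sod2 by 2.25 ± 0.16 (edgeR adjusted p = 8.68e-06), in 3 of 3 experiments each.

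Against all 11243 genes, 7 of the 7 passed edgeR's test at an adjusted p of at most 0.25 in the comparison of LPS with the control in total mRNA, where 66.5% of all genes did. In that comparison 6 of the 7 were higher, against 32.2% of all genes, and 1 was lower, against 34.3%. In polysome-associated mRNA 7 of 7 passed, against 55.1% of all genes, 6 of them higher, against 26.4%, and 1 lower, against 28.7%. The median log2 fold change of the 7 was 3.18 in total and 3.10 in polysome-associated mRNA, and over all genes it was -0.02 and -0.03. The list was put together with such changes known, so these counts describe the 7 genes.

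Per length of exon, which allows levels of different genes to be set side by side, Acod1 had a mean of 3055 ± 17.3 CPM per kb (SD, n = 3) in total mRNA with LPS, rank 9 from the top of the 11087 genes with a length. Ptgs2 followed at 1339.7 ± 226 CPM per kb, rank 16, and Sod2 at 71.4 ± 8.92 CPM per kb, rank 701. The median level of all genes was 6.88 CPM per kb. The remaining 4 genes had mean levels between 1.81 CPM per kb (Ptgs1) and 15.1 CPM per kb (Gch1), with Ass1 at 6.93 ± 0.912 and Ptges at 5.08 ± 0.947 CPM per kb in between. In the control, the levels of Acod1 at 17.1 ± 12.6, Ptgs2 at 16.1 ± 6.58 and Sod2 at 13.6 ± 1.37 CPM per kb differed in their means by less than the SD of Acod1 and that of Ptgs2.

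The 7 genes lie on chromosomes 1, 2, 14 and 17 of GRCm38. Ass1 spans chr2:31470207-31520672, Gch1 spans chr14:47153895-47189413, Acod1 spans chr14:103046977-103056573. Ptgs2 spans chr1:150100031-150108227, Ptges spans chr2:30889471-30929863, Ptgs1 spans chr2:36230426-36252272, Sod2 spans chr17:13006846-13040063. Gch1 and Ptges are on the minus strand and the other 5 on the plus strand. The processed pseudogenes Gm49134 and Gm18811 lie in introns of Gch1 and share 0 exon bases with it.

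The comparison of LPS with torin1 against LPS asks how the LPS response differed when mTOR was inhibited. In total mRNA 4 of the 7 passed edgeR's test, against 53.7% of all genes (both this share and that in polysome-associated mRNA were near the background). Of these, 1 was higher, against 27.3% of all genes, and 3 were lower, against 26.4%. In polysome-associated mRNA 3 of the 7 passed, against 38.4%, 1 of them higher, against 20.3%, and 2 lower, against 18.2%. With a replicate block for the 3 experiments, which compares libraries within each of them, 6 of the 7 passed in each RNA type, against 64.0% of all genes in total and 49.7% in polysome-associated mRNA. The median log2 fold change of the 7 was -0.49 in total and -0.42 in polysome-associated mRNA, and over all genes it was within 0.01 of 0 in both.

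**Figure D2:**
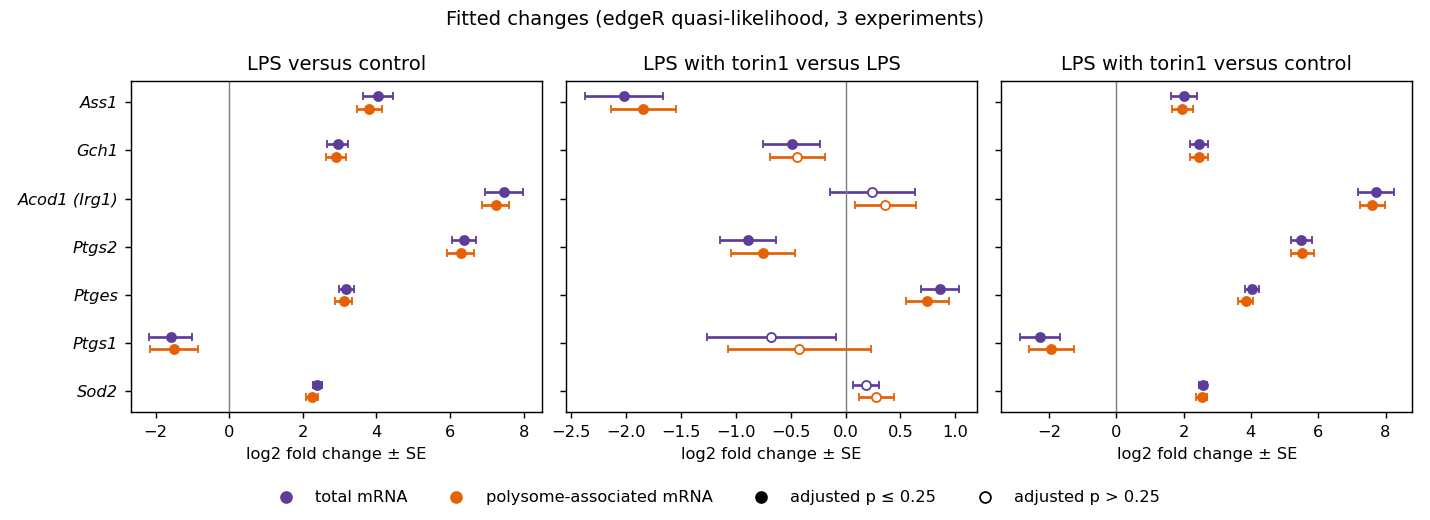
Fitted log2 fold changes with their SE for the 3 comparisons, in total mRNA (purple) and polysome-associated mRNA (orange). Filled circles have an adjusted p of at most 0.25 in the fit without the pairing of experiments and open circles do not. The 3 panels have their own horizontal scales, and the comparisons share libraries. With torin1, Ass1 lies farthest to the left at -2.02 and -1.84 and Ptges farthest to the right at 0.86 and 0.75.

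Among the arginine and cofactor enzymes, Ass1 with LPS and torin1 stood at 13.05, 41.6 and 19.2% of its LPS level in total mRNA of experiments 1, 2 and 3, and at 20.4, 41.2 and 21.04% in polysome-associated mRNA. Total Ass1 fell by 2.02 ± 0.36 (log2, SE; edgeR adjusted p = 0.00271) and polysome-associated Ass1 by 1.84 ± 0.30 (edgeR adjusted p = 0.00361), in 3 of 3 experiments. The groups did not overlap, and experiment 2 kept the largest share of the LPS level, without which the log2 fold change of total Ass1 was -2.67. Gch1 stood at 61.8, 80.6 and 70.0% in total mRNA and 58.5, 84.1 and 75.2% in polysome-associated mRNA. Total Gch1 fell by 0.49 ± 0.26 (edgeR adjusted p = 0.180), lower in 3 of 3 experiments, with overlapping groups, and without experiment 1 the edgeR adjusted p was 0.496. For polysome-associated Gch1 the log2 fold change was -0.44 ± 0.25 (edgeR adjusted p = 0.273), lower in 3 of 3, and with the replicate block it was -0.45 (edgeR adjusted p = 0.0520). It also passed without experiment 2 (-0.60, edgeR adjusted p = 0.114).

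Acod1 with LPS and torin1 stood at 118.5% ± 3.83 of its LPS level (SD, n = 3) in total mRNA and 139.8, 124.7 and 116% in polysome-associated mRNA. It was higher in 3 of 3 experiments in each RNA type, and the groups did not overlap, but the differences of 0.24 ± 0.39 and 0.36 ± 0.28 (log2, SE) did not pass edgeR's test (adjusted p = 0.675 and 0.421). With only these 2 treatments in the model edgeR's adjusted p was 0.166 and 0.167, and without experiment 2 it was 0.121 for polysome-associated Acod1, so that these fits called it. The coefficient of variation of total Acod1 was 73.4% in the control, 0.567% with LPS and 3.61% with LPS and torin1.

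In the prostaglandin steps, Ptgs2 stood at 43.8, 61.1 and 60.7% of its LPS level in total and 57.2, 58.2 and 59.7% in polysome-associated mRNA. Total Ptgs2 fell by 0.89 ± 0.26 (log2, SE; edgeR adjusted p = 0.0258) and polysome-associated Ptgs2 by 0.75 ± 0.29 (edgeR adjusted p = 0.114), in 3 of 3 experiments. The latter did not pass without experiment 1 (edgeR adjusted p = 0.422) or without experiment 3 (0.330). Ptges moved the other way and stood at 224, 121 and 218% and 164, 141 and 198% of its LPS level. Total Ptges rose by 0.86 ± 0.17 (edgeR adjusted p = 0.00525) and polysome-associated Ptges by 0.75 ± 0.20 (edgeR adjusted p = 0.0328), in 3 of 3 experiments, the latter with an edgeR adjusted p of 0.337 without experiment 3. For Ptgs1 the log2 fold changes were -0.68 ± 0.59 in total mRNA, lower in 3 of 3 experiments, and -0.42 ± 0.65 in polysome-associated mRNA, lower in 2 of 3 (edgeR adjusted p = 0.423 and 0.710). With the replicate block they were -0.71 and -0.38 and passed (edgeR adjusted p = 0.00596 and 0.188), and total Ptgs1 also passed without experiment 1 (-0.90, edgeR adjusted p = 0.188).

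Sod2 stood at 99.8, 119.6 and 125.1% and 126, 110.5 and 120.5% of its LPS level in total and polysome-associated mRNA. The log2 fold changes were 0.19 ± 0.12, higher in 2 of 3 experiments, and 0.28 ± 0.16, higher in 3 of 3 (edgeR adjusted p = 0.261 and 0.261). With the replicate block they were 0.19 and 0.28 and passed (edgeR adjusted p = 0.195 and 0.116). Total Sod2 also passed without experiment 1 (0.29, edgeR adjusted p = 0.144) and polysome-associated Sod2 without experiment 2 (0.32, edgeR adjusted p = 0.152).

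**Figure D3:**
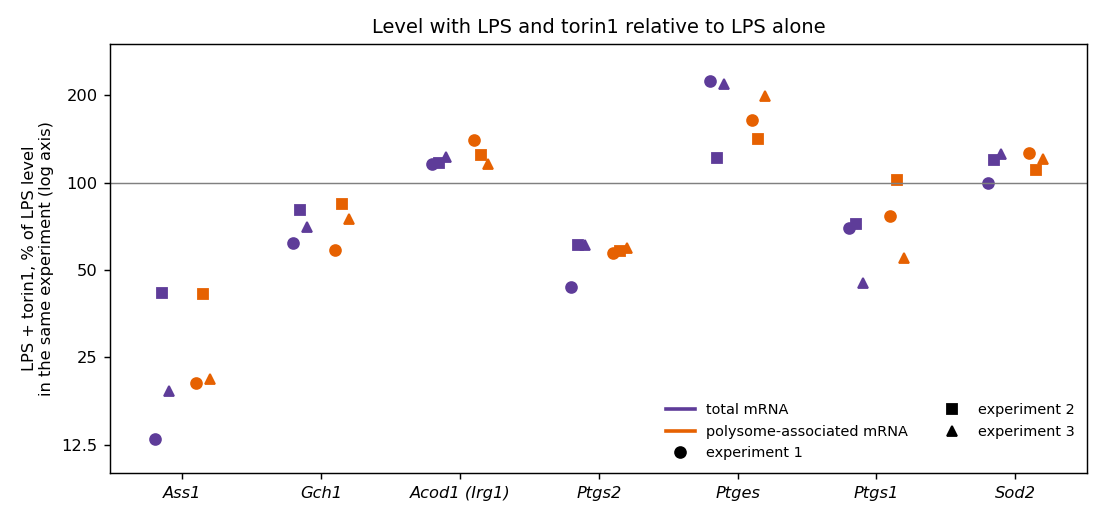
Level with LPS and torin1 as a percentage of the LPS level of the same experiment, on a log axis, for total mRNA (purple) and polysome-associated mRNA (orange); the line marks 100%. Symbols mark the experiments. Ass1 lies between 13.05% and 41.6%, Ptgs2 between 43.8% and 61.1%, and Ptges between 121% and 224%.

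Against the control, all 7 genes passed edgeR's test with LPS and torin1 in total mRNA, where 66.7% of all genes did, 6 of them higher, against 33.1%, and 1 lower, against 33.6%. In polysome-associated mRNA 7 of 7 passed, against 58.2%, 6 higher, against 28.5%, and 1 lower, against 29.7%. These comparisons share the control libraries with those of LPS. Total Ass1 was 2.02 ± 0.39 above the control (log2, SE; edgeR adjusted p = 0.00186), in 3 of 3 experiments, beside 4.04 with LPS alone. For Acod1 the total mRNA difference was 7.72 ± 0.52 (edgeR adjusted p = 2.13e-06), which was 8.502 without experiment 2, for Ptgs2 5.50 ± 0.31 (edgeR adjusted p = 7.25e-07) and for Ptges 4.04 ± 0.20 (edgeR adjusted p = 3.55e-07), each higher in 3 of 3. Total Ptgs1 was lower by a log2 fold change of -2.27 ± 0.59 (edgeR adjusted p = 0.00928), in 3 of 3 experiments.

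Translation efficiency, the change of polysome-associated mRNA beyond that of total mRNA, was compared through the ratio of both RNA types in each lysate. Because each library is scaled to a common size, a shift of most mRNAs onto or off polysomes cannot be seen in this ratio. Ptgs2 had log2 ratios of -0.69, -0.68 and -0.69 in the control, -0.82, -1.05 and -0.50 with LPS, and -0.44, -1.12 and -0.53 with LPS and torin1, in experiments 1, 2 and 3. Acod1 had 0.28, -0.65 and -0.47 in the control, -0.73, -0.77 and -0.52 with LPS, and -0.45, -0.68 and -0.60 with LPS and torin1. Both had negative ratios in all lysates but that of the control of experiment 1 for Acod1, and their groups overlapped. Gch1 lay at the other end, at 0.97, 0.56 and 0.98 in the control, 0.76, 0.75 and 0.73 with LPS, and 0.68, 0.81 and 0.83 with LPS and torin1. On the mean ratio with LPS, 9.75% of all genes were below Ptgs2, 13.4% below Acod1 and 86.1% below Gch1. In the control these shares were 14.1%, 33.8% and 88.0%. Ptgs1 had 0.19, -0.18 and 0.27 in the control, 0.38, -0.05 and 0.18 with LPS, and 0.52, 0.45 and 0.47 with LPS and torin1, so that LPS with torin1 lay above LPS in 3 of 3 experiments without overlap, and on the mean ratio 57.2% of all genes were below it with LPS and 81.7% with LPS and torin1. The means of the other 3 genes lay between -0.20 (Sod2 with LPS) and 0.53 (Ptges in the control).

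**Figure D4:**
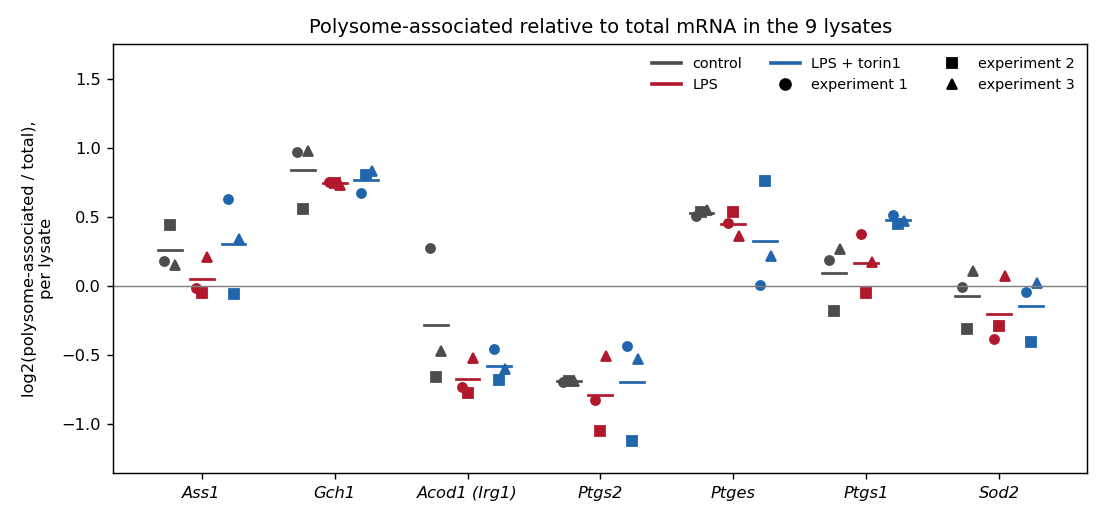
Log2 ratio of polysome-associated to total mRNA in each of the 9 lysates, by gene, with symbols for experiments, colours for treatments and bars for group means. Gch1 lies above 0 and Ptgs2 below 0 in every lysate.

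By edgeR's interaction test over the 18 libraries, 0 of the 7 genes and 0% of all genes passed an adjusted p of at most 0.25 with a fold of at least 1.2, in the comparison of LPS with the control and in that of LPS with torin1 against LPS. At an unadjusted p under 0.05 there were 0 of the 7 genes in both comparisons, and 44 and 110 genes of the table. With no difference anywhere, a share of about 0.05 of the 11243 genes would be there, and both counts were far below it. The test was thus conservative, and its 0 calls say little about efficiency. The test did not use the pairing of both RNA types in a lysate. The replicate block has a level for each lysate in this model and so compares both RNA types within a lysate. With it edgeR gave 164 and 303 genes at that unadjusted p, also below that share, and 0 of the 7. DESeq2 called 1 and 7 genes and the analysis of partial variance 10 and 21, with 0 of the 7 among them. The lowest unadjusted p of the 7 in the analysis of partial variance was 0.0191 and 0.0197, and their lowest adjusted p by it was 0.684 and 0.712. With the replicate block edgeR called 0 and 25 genes, again 0 of the 7. The fitted changes of efficiency by edgeR ran from -0.23 to 0.09 with LPS and from -0.14 to 0.24 with torin1 added (log2). By the analysis of partial variance, which adjusts for total mRNA with a fitted slope, the sign with LPS was the other way for Acod1 (2.82), Sod2 (2.60), Ptges (1.37), Ass1 (1.05), Gch1 (0.44) and Ptgs2 (0.40), and with torin1 added for Ass1 (-0.43), Gch1 (-0.0630) and Ptges (0.27), on the log2 scale. Why these estimates differed was not tested. A p that misses the threshold does not show that efficiency was equal.

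The other genes of the same pathways were taken from lists and are described in polysome-associated mRNA by edgeR's test. Of 24 listed genes around arginine and nitric oxide, 17 were in the table. With LPS, 5 rose, against 26.4% of all genes, and 4 fell, against 28.7%, and together these 9 were near the background of 55.1%. The 17 genes had a median log2 fold change of -0.05 beside -0.03 over all genes. Ddah2, which degrades methylated arginines, rose with LPS (log2 fold change 1.96), as did the transporter subunits Slc7a7 (1.88) and Slc3a2 (0.99). For Ddah2 this was 1.22 without experiment 2, whose control had 9 counts. Spr (-0.67), of pterin metabolism, and Nostrin (-0.46) fell. With torin1, 2 rose and 2 fell, where 38.4% of all genes were called, with a median of -0.19. Nostrin rose (log2 fold change 0.46), and Ddah2 (-0.98) and the arginine transporter Slc7a1 (-0.76) fell. That count of 4 was 2, 8 and 1 without experiment 1, 2 and 3, where 15.8%, 46.1% and 10.6% of all genes were called, and 7 with the replicate block, against 49.7%. Of the LPS calls named here, edgeR's adjusted p was above 0.25 without experiment 1 for Spr (0.476), Nostrin (0.257), and without experiment 2 for Nostrin (0.353), and without experiment 3 for Nostrin (0.315). Of the torin1 calls named here, edgeR's adjusted p was above 0.25 without experiment 1 for Nostrin (0.388), Ddah2 (0.419), and without experiment 3 for Nostrin (0.715), Ddah2 (0.462), Slc7a1 (0.261).

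Of 21 listed genes of itaconate and the neighbouring steps of the Krebs cycle, 20 were in the table. With LPS, 4 passed edgeR's test, against 55.1% of all genes, each of them lower, against 28.7%. The count was 2 without experiment 1, against 34.7% of all genes, and 7 with upper-quartile scaling, against 56.7%. The median log2 fold change was -0.09. Slc25a10, the mitochondrial dicarboxylate carrier, was at 69.4, 43.5 and 59.6 CPM in the control and 17.7, 24.4 and 15.3 CPM with LPS, without overlap, and fell (log2 fold change -1.59 ± 0.28, edgeR adjusted p = 0.00157), lower in 3 of 3. Auh (-0.57) and the isocitrate dehydrogenases Idh1 (-0.46) and Idh2 (-0.42) also fell on the log2 scale. With torin1, 2 rose, Aco1 (0.42) and Auh (0.41), and 3 fell, where 38.4% of all genes were called, among them the citrate carrier Slc25a1 (-0.60) and the succinate dehydrogenase subunit Sdhd (-0.58). The median with torin1 was -0.05. That count of 5 was 1 without experiment 1, against 15.8% of all genes, and 0 by edgeR without experiment 3, against 10.6%. In the latter fit 1 gene of the list had an unadjusted p under 0.05. DESeq2 with all experiments called 5, and edgeR with the replicate block called 7, against 49.7%. Of the LPS calls named here, edgeR's adjusted p was above 0.25 without experiment 1 for Idh1 (0.382), Idh2 (0.331), and without experiment 2 for Idh1 (0.386). Of the torin1 calls named here, edgeR's adjusted p was above 0.25 without experiment 1 for Aco1 (0.395), Auh (0.275), Slc25a1 (0.425), and without experiment 3 for Aco1 (0.390), Auh (0.480), Slc25a1 (0.392), Sdhd (0.301).

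Of 27 listed genes of prostanoids and leukotrienes, 18 were in the table. With LPS, 5 rose, against 26.4% of all genes, and 9 fell, against 28.7%. Together 55.1% of all genes were called, and the count in the list was 14. It was 4 without experiment 1, against 34.7% of all genes, and 6 without experiment 3, against 37.6%. The median log2 fold change was -0.35 with LPS and -0.06 with torin1. Pla2g5, a secreted phospholipase A2, was at 5.14, 4.73 and 3.91 CPM in the control, 20.8, 33.1 and 24.8 CPM with LPS and 7.67, 16.2 and 11.2 CPM with LPS and torin1, with no overlap of the groups. It rose with LPS (log2 fold change 2.51 ± 0.30, edgeR adjusted p = 0.000133) and fell with torin1 (log2 fold change -1.14 ± 0.28, edgeR adjusted p = 0.0243), in 3 of 3 experiments each. The prostacyclin receptor gene Ptgir (2.05), the phospholipase gene Pla2g4c (1.40) and the thromboxane synthase gene Tbxas1 (0.43) also rose with LPS on the log2 scale. Ltc4s (-1.03) and Alox5 (-0.43), of leukotriene synthesis, the receptor gene Ptger1 (-0.94) and Ptges2 (-0.43) fell. With torin1, 2 rose and 6 fell, where 38.4% of all genes were called. The count of 8 was 5 without experiment 1, against 15.8%, and 4 without experiment 3, against 10.6%. It was 11 with the replicate block, against 49.7%. Hpgds, a prostaglandin D synthase, rose (log2 fold change 1.45 ± 0.36, edgeR adjusted p = 0.0238), in 3 of 3 experiments, as did Pla2g15 (0.46), and Pla2g4c fell (log2 fold change -1.96 ± 0.30, edgeR adjusted p = 0.00281), in 3 of 3. Of the LPS calls named here, edgeR's adjusted p was above 0.25 without experiment 1 for Tbxas1 (0.474), Ltc4s (0.418), Alox5 (0.487), Ptges2 (0.398), and without experiment 3 for Tbxas1 (0.575), Ltc4s (0.307), Ptges2 (0.364). Tbxas1 was also not called by edgeR with only the 2 treatments in the model (adjusted p = 0.273) or with upper-quartile scaling (adjusted p = 0.414). Of the torin1 calls named here, edgeR's adjusted p was above 0.25 without experiment 1 for Pla2g15 (0.388), and without experiment 3 for Pla2g15 (0.389).

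Of 20 listed genes of superoxide, 18 were in the table. With LPS, 8 rose, against 26.4% of all genes, and 2 fell, against 28.7%, and together these 10 were near the background of 55.1%. The 18 genes had a median log2 fold change of 0.21, and with torin1 the median was 0.12. Nox1, a catalytic subunit of NADPH oxidases, was at 0.364, 0.498 and 0.453 CPM in the control, 3.45, 2.37 and 2.45 CPM with LPS and 0.462, 0.455 and 0.330 CPM with LPS and torin1, so that LPS stood apart from both other groups. It rose with LPS (log2 fold change 2.64 ± 0.30, edgeR adjusted p = 0.000112) and fell with torin1 (log2 fold change -2.70 ± 0.31, edgeR adjusted p = 0.000944), in 3 of 3 experiments each. Cybb (1.49), the catalytic subunit of the phagocyte oxidase, and the peroxiredoxin genes Prdx5 (1.67) and Prdx1 (1.04) rose with LPS, and Gpx1 (-0.80) and Cat (-0.54) fell. With torin1, 2 rose, Cybb (0.55) and Ncf4 (0.44), and 4 fell, among them Prdx3 (-0.39), where 38.4% of all genes were called. That count of 6 was 2 without experiment 1, against 15.8%, and 1 without experiment 3, against 10.6%. It was 8 with the replicate block, against 49.7%. Of the torin1 calls named here, edgeR's adjusted p was above 0.25 without experiment 1 for Cybb (0.466), Prdx3 (0.338), and without experiment 3 for Cybb (0.462), Ncf4 (0.434), Prdx3 (0.512). Over the 4 lists, 8 of the 25 calls that the naming rule took for LPS and 11 of the 16 it took for torin1 did not pass in at least 1 of the fits that left out an experiment.

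By the root mean square difference of centred log2 CPM over the 18 libraries, the genes whose pattern was nearest to that of Acod1 were Mmp14 (0.58), Ccl5 (0.64) and Edn1 (0.69), against a range of 9.04 for Acod1 itself. For Ptgs2 they were Il1rn (0.74), Ccr1 (0.78) and Fas (0.82), against a range of 8.08. The pattern of Ass1 was nearest to those of Oasl1 (0.28), Fcgr4 (0.37) and Batf2 (0.39), and that of Gch1 to those of Gadd45b (0.27), Bcl2l1 (0.28) and Rhoc (0.29). Nearest to Ptges were Rffl (0.34), Slc31a2 (0.35) and P2ry2 (0.35), to Ptgs1 Neurl3 (0.58), Lgr4 (0.61) and Olfr933 (0.61), and to Sod2 Irak3 (0.20), Agpat4 (0.21) and Plek (0.21).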

How the data were processed

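Total and polysome-associated mRNA of the same 9 lysates was measured in 18 libraries. The authors made stranded, paired-end libraries of total RNA after removing ribosomal RNA, aligned the reads to GRCm38 with Hisat2 in a nextflow pipeline run at its defaults, and counted them per gene with featureCounts on an Ensembl annotation, and the deposited values are raw counts of protein-coding genes with genes at 0 in a sample removed. Which strand setting those defaults gave the counting is not given in the sources used here.

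edgeR 4.0.16 in R 4.3.3 was used for the tests of the counts, by its quasi-likelihood method with TMM scaling. Each RNA type had its own model, which held its 9 libraries in 3 treatments, and no gene was filtered out. Benjamini-Hochberg adjustment ran over 11243 genes, and a gene was called when its adjusted p was at most 0.25. For translation efficiency, a model of all 18 libraries tested whether the treatment effect differed between RNA types, and a call also needed a fold of 1.2 or more. The alternatives were DESeq2 1.42.0, upper-quartile scaling, a filter on low counts, an adjusted p of at most 0.05, a replicate block, models of only the 2 treatments compared, each experiment left out in turn, and, for efficiency, an analysis of partial variance with limma 3.58.1, written from the description of anota2seq, which was not used here. The tests were checked on simulated data. The simulated counts held no effect shared within an experiment or a lysate, and the fits that left out an experiment were not among those checked. Depth was 27800983 to 47725557 counts per library, and replicates differed beyond sampling noise, with a lowest chi-squared per degree of freedom of 26.3.

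The labels number the experiments 1 to 3 in each treatment. Deviations from the group means correlated between libraries of the same number at 0.149 to 0.424 in total mRNA and at 0.389 to 0.649 between the RNA types of a lysate, so these were taken as paired, as were LPS and LPS with torin1 in polysome-associated mRNA. The tests and calls do not use this pairing except where the replicate block is named. With the replicate block 6 of the 7 genes and 5587 of all genes (49.7%) were called in that comparison.

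Positions and lengths came from GENCODE M21 and promoters from RefSeq, both on GRCm38, and plots were drawn with matplotlib 3.10.9 in Python 3.11.15. The 7 genes were named by their list. From each pathway list, the text names up to 4 genes that rose and 4 that fell most with LPS in polysome-associated mRNA, and up to 2 each with torin1, all called and moving the same way in 3 of 3 experiments. Some genes that this rule takes are not reported here. For likeness, the 3 genes with the smallest root mean square difference of log2 CPM (prior count 0.5) are given. The genes and lists were chosen with earlier results of these data known.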

Additional observations from a re-analysis of the deposited data

How the results depend on the processing

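Of 504 values of the 7 genes under the alternatives, 465 kept their direction and side of the threshold, 8 lost the call, 15 gained it and 16, all of translation efficiency and never called, changed sign. All 63 values each of LPS versus control and of LPS with torin1 versus control in total mRNA, and of the latter in polysome-associated mRNA, kept theirs. At an adjusted p of at most 0.05 by edgeR, the genes called in polysome-associated mRNA were 3654 for LPS versus control, 1557 for LPS with torin1 versus LPS and 3950 for LPS with torin1 versus control, and in total mRNA 3279 for LPS with torin1 versus LPS. Ptgs1 with LPS and Ptgs2 with torin1 in polysome-associated mRNA, and Gch1 with torin1 in total mRNA, were then not called. With an experiment left out, which leaves fewer samples, the genes called were 3901 to 7251 (LPS versus control, polysome-associated), 3959 to 5385 (LPS with torin1 versus LPS, total), 1187 to 5182 (LPS with torin1 versus LPS, polysome-associated), 4156 to 7627 (LPS with torin1 versus control, polysome-associated). Of the 7 genes, the number called with torin1 in polysome-associated mRNA was then 1 to 6. Upper-quartile scaling moved the median log2 fold change of all genes with LPS from -0.02 to -0.15 in total and from -0.03 to -0.15 in polysome-associated mRNA, and with LPS and torin1 against the control to -0.10 in total mRNA, and called Sod2 with torin1 (edgeR adjusted p = 0.139 and 0.209). By it 7 genes of the itaconate list were called with LPS in polysome-associated mRNA, against 4. DESeq2 called polysome-associated Gch1 with torin1 (adjusted p = 0.245).

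For polysome-associated mRNA against the control, same-numbered libraries correlated at -0.0923 to 0.389, not over 0.1 in every pair, and they were not taken as paired here; with the replicate block 7062 genes were called for LPS and 7451 for LPS with torin1, with 7 of the 7 genes in each. Elsewhere the replicate block gave 6 of the 7 genes with torin1 in polysome-associated mRNA, against 5587 of all 11243 genes (49.7%), and changed no call of the 7 genes or the named pathway genes beyond those given.

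For translation efficiency, DESeq2 called 1 and 7 genes, the analysis of partial variance 10 and 21, and edgeR with the replicate block 25 in the torin1 comparison. For LPS versus control, the log2 change of efficiency changed sign by the analysis of partial variance for Acod1 2.82, Ass1 1.05, Gch1 0.44, Ptgs2 0.40, Ptges 1.37, Sod2 2.60, and with an experiment left out ranged over 0 for Gch1 -0.23 to 0.00660, Ptgs2 -0.23 to 0.0117, Ptgs1 -0.0421 to 0.17. For LPS with torin1 versus LPS, the log2 change of efficiency changed sign by the analysis of partial variance for Ass1 -0.43, Gch1 -0.0630, Ptges 0.27, and with an experiment left out ranged over 0 for Gch1 -0.000854 to 0.12, Ptgs2 -0.00288 to 0.19, Ptges -0.28 to 0.0387, Sod2 -0.0355 to 0.15. The cause was not tested. Depth limits Ass1 most in the control, with 27 to 74 counts per library.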
